A study of Rattus norvegicus with 6 samples.

Results

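Stereocilia are the actin-filled projections that crown each sensory hair cell (HC) of the ear, and the genes described here encode proteins that build, tip, root or coat that actin core. They are *Espn*, *Espnl*, *Eps8*, *Eps8l2*, *Fscn2*, *Pls1*, *Xirp2*, *Strc*, *Triobp* and *Ptprq*. These 10 genes were taken by symbol from the 32883 genes of the count table, and each symbol matched a single row.

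The table came from RNA-seq of vestibular sensory epithelium of male adult Long-Evans rats. The IDPN-4wk group was 3 rats exposed for 4 weeks, through their drinking water, to 3,3'-iminodipropionitrile (IDPN) at 20 mM, a nitrile that damages HCs. The Control group was 3 rats on plain water. Each library is 1 animal, with 2 utricles and 6 cristae pooled, so the organs were not measured apart. The animal codes of the exposed rats share a prefix that no control has, and what it marks cannot be told apart from the exposure. The comparison asks which transcripts differ in the epithelium after 4 weeks of exposure.

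In a stereocilium, parallel actin filaments are tied together by crosslinkers, the plastins, fascins and espins. Proteins of the Eps8 family sit at the tip, where they cap and bundle filaments and set length, and myosin motors carry them there. The filaments narrow at the base into a rootlet wrapped by TRIOBP, and glycoproteins on the outside link neighbouring stereocilia to one another. Loss of many of these proteins is known to cause deafness, vestibular dysfunction or both.

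Libraries held from 13358678 to 18561991 counts. All 10 genes passed the filter on low counts, with between 195 and 7633 counts in any library. Levels are given as CPM, counts per 1000000 after TMM scaling, and are not divided by transcript length, so levels of different genes are not compared. A gene was called downregulated or upregulated when its adjusted p (Padj) from the edgeR test over 14352 genes was under 0.05 and its fold change was over 1.5. In bulk tissue, fewer HCs and less RNA in each HC cannot be told apart.

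The bundle genes did not move as a block. *Xirp2*, *Ptprq* and *Espnl* were downregulated, and 0 of the 10 were upregulated by edgeR, DESeq2 or limma-voom, with 1, *Eps8l2*, higher at an unadjusted p under 0.05. Of all tested genes, 6.62% were downregulated and 3.09% upregulated. *Espn* was lower and *Eps8l2* higher with Padj under 0.05 but a fold change under 1.5, so at that looser threshold 4 members were lower, where 11.5% of all genes were, and 1 was higher, where 7.89% were. *Eps8*, *Fscn2*, *Pls1*, *Strc* and *Triobp* did not pass the test. The median log2-Fold change of the 10 genes was -0.10, beside 0.02 over all tested genes. With library size in place of TMM, the median over all genes moved to 0.13, and 780 genes were lower and 762 higher in place of 950 and 444. The calls on the 10 genes did not change with that scaling.

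**Figure D1:**
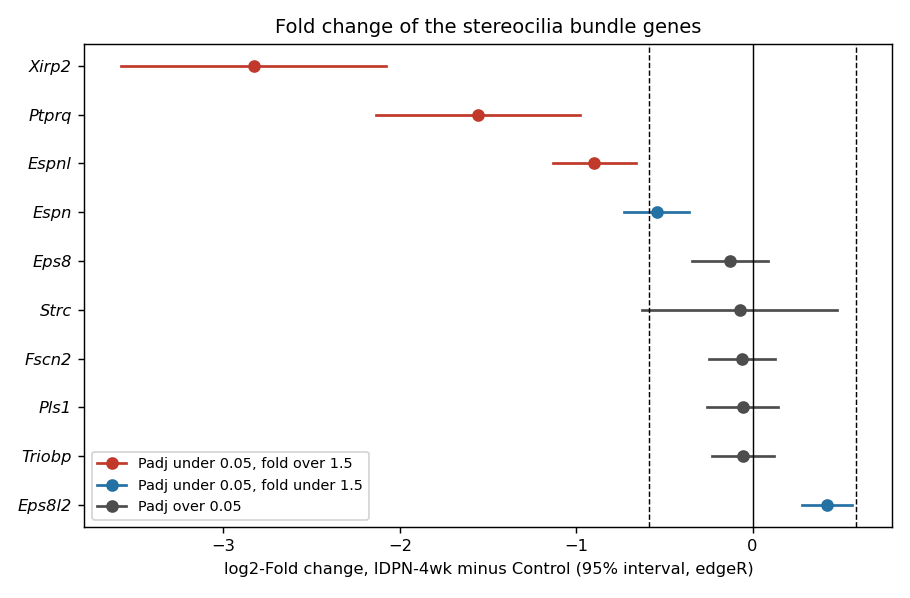
The log2-Fold change of each gene (IDPN-4wk minus Control, x axis) is plotted as a point with its 95% interval from edgeR, and dashed lines mark a fold change of 1.5. Intervals of *Xirp2*, *Ptprq* and *Espnl* lie beyond the left dashed line, while those of *Eps8*, *Fscn2*, *Pls1*, *Strc* and *Triobp* include 0.

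*Xirp2* (ENSRNOG00000034258) had the lowest log2-Fold change of the 10. Its product, Xin actin-binding repeat containing 2, binds actin filaments in stereocilia and in the cuticular plate, the actin mat that anchors them, and is also a protein of striated muscle. The Control animals had 134, 171 and 149 CPM and the IDPN-4wk animals 14.0, 11.8 and 38.4 CPM. The groups were far apart, and the third IDPN-4wk animal had more transcript than the other two. The mean fell from 151 ± 18.3 to 21.4 ± 14.7 CPM (SD, n = 3 per group), a log2-Fold change of -2.83 with a 95% interval from -3.58 to -2.08 (edgeR Padj 2.98e-04). Without IDPN-4wk replicate 3 the log2-Fold change was -3.57, so its size rests partly on that animal, while the call held in every fit.

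A promoter sequence is shown for *Xirp2* and *Espnl*, the downregulated genes with an entry in the RefSeq table (build GRCr8), and for *Eps8l2*, the gene with the opposite sign. Of the 10 genes, 7 had an entry. Each run is the 250 bases before the annotated gene start, read 5′ to 3′ on the plus strand, at chr3:72533936-72534185 for *Xirp2*, chr9:99359328-99359577 for *Espnl* and chr1:205875575-205875824 for *Eps8l2*. Counts were made on another build, Rnor6.0, and the start used in HCs was not measured. Capitals mark the core motif bound by MEF2 factors of muscle and nerve, searched as CTA, then 4 bases of any kind, then TAG.
Xirp2: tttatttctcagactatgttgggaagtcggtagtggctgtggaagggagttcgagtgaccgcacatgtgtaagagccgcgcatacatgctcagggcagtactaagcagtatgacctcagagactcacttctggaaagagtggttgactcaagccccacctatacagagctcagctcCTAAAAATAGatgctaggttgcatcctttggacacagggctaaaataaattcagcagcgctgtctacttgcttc
Espnl: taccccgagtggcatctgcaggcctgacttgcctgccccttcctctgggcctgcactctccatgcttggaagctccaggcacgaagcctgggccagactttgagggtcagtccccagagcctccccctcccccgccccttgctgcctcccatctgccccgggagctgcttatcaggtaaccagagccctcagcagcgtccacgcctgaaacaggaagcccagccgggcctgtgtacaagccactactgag
Eps8l2: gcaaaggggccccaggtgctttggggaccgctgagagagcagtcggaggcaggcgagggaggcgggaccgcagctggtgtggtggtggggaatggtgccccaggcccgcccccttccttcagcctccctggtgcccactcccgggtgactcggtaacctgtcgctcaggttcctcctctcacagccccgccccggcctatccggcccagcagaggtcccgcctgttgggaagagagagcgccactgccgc

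The MEF2 letters, searched on both strands, occurred once before *Xirp2*, as CTAAAAATAG from 74 to 65 bases before the start, and in none of the windows of the other 6 genes with an entry. They occur in 3.41% of all 33469 RefSeq promoter windows of that length. The E-box letters CANNTG, the general site of basic helix-loop-helix factors, were found 2 times in each of the 3 windows shown and in 65.5% of all windows. The TATA letters TATAAA were in none of the 3 and in 12.9% of all.

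*Ptprq* (ENSRNOG00000056915) encodes a receptor-like phosphatase that acts on membrane phosphoinositides and forms the shaft connectors near the base of the bundle. It was measured at 459, 533 and 485 CPM in Control and at 126, 110.4 and 266 CPM in IDPN-4wk animals. Again the groups did not overlap and the third exposed animal was the highest of its group. The mean fell from 492 ± 37.9 to 167 ± 85.8 CPM (SD, n = 3 per group), with a log2-Fold change of -1.56 (95% interval from -2.14 to -0.98, edgeR Padj 0.00233). It stayed downregulated when any single library was left out, with log2-Fold changes from -2.07 to -1.33.

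The espins are actin crosslinkers that bundle parallel filaments and lengthen stereocilia. *Espnl* (ENSRNOG00000024717), the espin-like gene whose product is a cargo of class III myosins, was at 71.9, 70.8 and 58.4 CPM in Control and at 35.2, 33.2 and 39.5 CPM in IDPN-4wk animals. All exposed animals lay below all controls, within a narrow range. The log2-Fold change was -0.90 (95% interval from -1.13 to -0.66, edgeR Padj 2.66e-04). *Espn* itself (ENSRNOG00000010270) was at 211, 244 and 228 CPM in Control and at 142, 164 and 162 CPM in IDPN-4wk animals. These groups did not overlap either, but the log2-Fold change of -0.54 (SE 0.08, edgeR Padj 0.00132) was under the fold change threshold. It passed that threshold in 1 fit, without Control replicate 1 (-0.60).

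The Eps8 genes gave opposite estimates. *Eps8* (ENSRNOG00000007047), which caps and bundles actin at the tips of the tallest stereocilia, was at 38.4, 38.0 and 33.5 CPM in Control and at 33.9, 35.0 and 31.7 CPM in IDPN-4wk animals, overlapping ranges. Its log2-Fold change was -0.13 (95% interval from -0.34 to 0.09, edgeR Padj 0.407). *Eps8l2* (ENSRNOG00000018336), a relative at the tips of the shorter rows, was at 173, 169 and 165 CPM in Control and at 226, 228 and 226 CPM in IDPN-4wk animals. It was the single gene of the 10 that was higher in every exposed animal than in every control. The log2-Fold change was 0.42 (SE 0.06, edgeR Padj 0.00127), which is 134% of the Control mean and under the fold change threshold in every fit. Over all tested genes, every exposed animal lay below every control in 19.3%, as in 4 of the 10 members, and above in 18.5%.

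**Figure D2:**
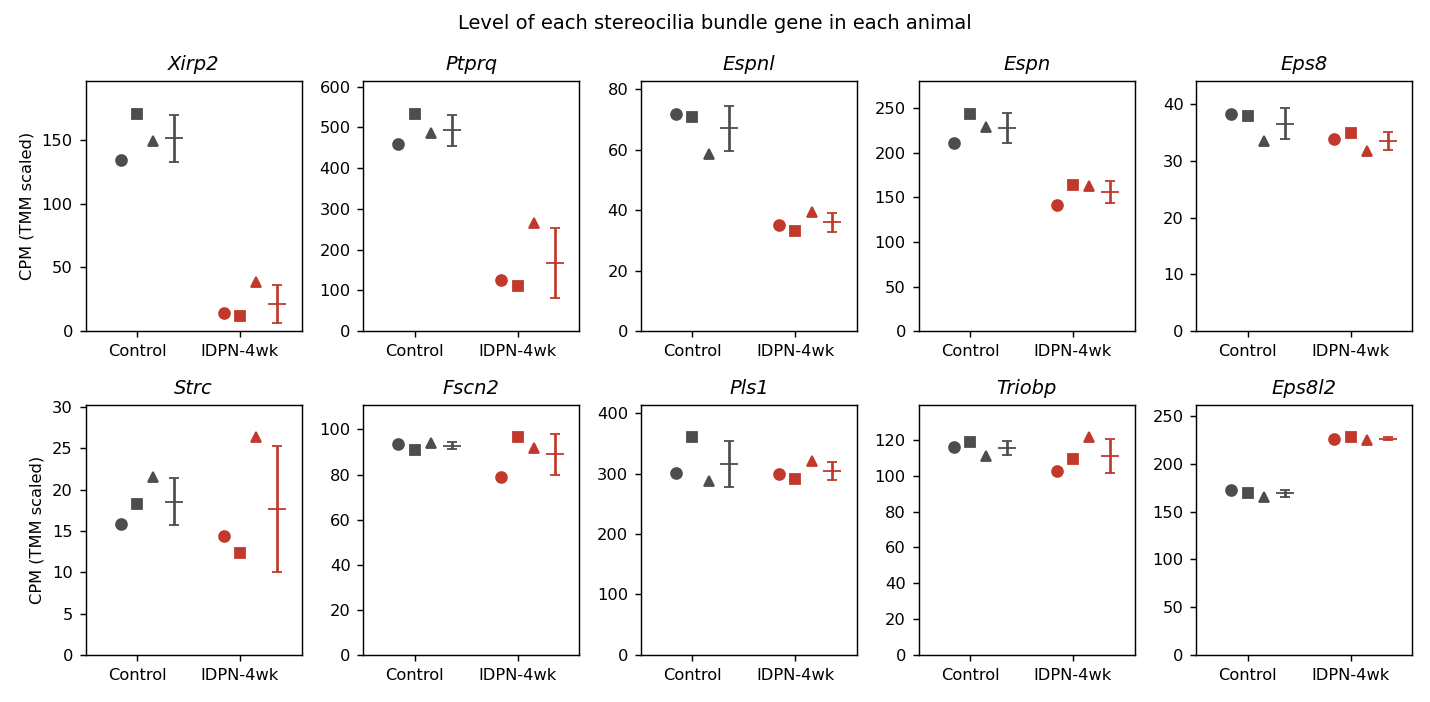
CPM of each gene (y axis, from 0) is shown for the 3 Control and 3 IDPN-4wk animals, circles, squares and triangles being replicates 1, 2 and 3, with the mean and SD beside them. *Xirp2*, *Ptprq*, *Espnl* and *Espn* are lower in all exposed animals, *Eps8l2* is higher in all, and the groups overlap in the other 5 genes.

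The crosslinkers fascin 2 and plastin 1 gave small estimates with narrow intervals. *Fscn2* (ENSRNOG00000036700), a crosslinker of mature stereocilia and photoreceptors, was at 93.7, 90.9 and 93.9 CPM in Control and at 78.7, 96.5 and 91.7 CPM in IDPN-4wk animals. Its log2-Fold change was -0.06, with a 95% interval from -0.25 to 0.13 (edgeR Padj 0.666). *Pls1* (ENSRNOG00000009945), a fimbrin that is a main crosslinker of stereocilia and of intestinal microvilli, was at 300.4, 359.9 and 287.6 CPM in Control and at 300.1, 290.9 and 321 CPM in IDPN-4wk animals. The log2-Fold change was also -0.06, with a 95% interval from -0.26 to 0.15 (edgeR Padj 0.710). For both genes a change of 1.5-fold lies outside the interval in either direction.

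*Triobp* (ENSRNOG00000059015), whose long products wrap the rootlet while a short product is made in most cells, was at 116, 119 and 111 CPM in Control and at 102, 109.5 and 121 CPM in IDPN-4wk animals. Its log2-Fold change was -0.06 (95% interval from -0.23 to 0.12, edgeR Padj 0.670). Gene counts do not separate the long from the short products. *Strc* (ENSRNOG00000014845) encodes stereocilin, the glycoprotein of the horizontal top connectors between stereocilia. It had the fewest Control counts of the 10 genes, with 15.8, 18.3 and 21.5 CPM in Control and 14.4, 12.3 and 26.3 CPM in IDPN-4wk animals. Its log2-Fold change of -0.07 had the widest interval of the genes not called, from -0.62 to 0.48 (edgeR Padj 0.871), which includes a 1.5-fold decrease. With library size alone the estimates of *Fscn2*, *Pls1*, *Triobp* and *Strc* were above 0.

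The third exposed animal stood apart for some genes and not for others. Relative to the Control mean, *Xirp2* was at 9.26%, 7.80% and 25.3% in IDPN-4wk replicates 1, 2 and 3, *Ptprq* at 25.5%, 22.4% and 54.0%, and *Strc* at 77.5%, 66.2% and 142%. Replicate 3 thus exceeded the higher of the other 2 exposed animals 2.74-fold for *Xirp2*, 2.12-fold for *Ptprq* and 1.83-fold for *Strc*. For the other 7 genes this ratio lay between 0.906 and 1.12. Among 9979 tested genes with a mean over 10 CPM, 78 (0.782%) exceeded 1.5. General HC genes were also somewhat higher in that animal, with 73.5% of Control for *Myo7a* against 59.2% and 60.4%, and 54.5% for *Otof* against 35.3% and 41.9%. The part of HC number in these differences was not tested.

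**Figure D3:**
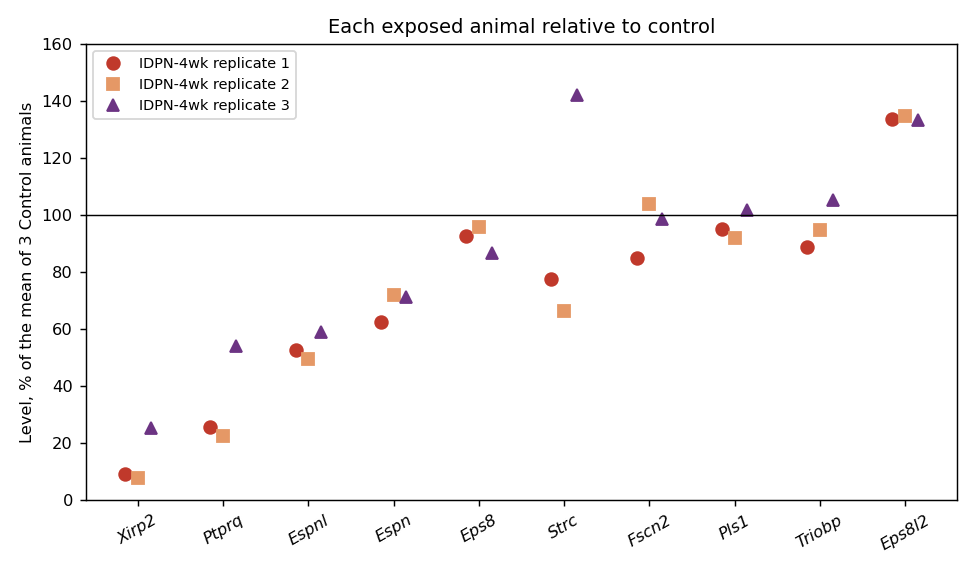
The level of each gene in each exposed animal is shown as a percentage of the Control mean (y axis, line at 100%). Replicate 3 (triangles) is above replicates 1 and 2 for *Xirp2*, *Ptprq* and *Strc*, while the 3 animals lie close together for *Eps8l2*, from 133% to 135%.

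To set the bundle genes against a general HC gene, each was divided by *Myo7a*, the gene of an HC motor protein, in the same library. *Myo7a* itself was downregulated, from 252 ± 17.7 to 162 ± 19.9 CPM (SD, n = 3 per group, edgeR Padj 0.00109). The ratio of *Xirp2* to *Myo7a* was 0.570, 0.630 and 0.596 in Control and 0.0938, 0.0775 and 0.207 in IDPN-4wk animals, so it was lower without overlap. *Ptprq* had ratios of 1.95, 1.97 and 1.94 in Control and 0.842, 0.725 and 1.44 in IDPN-4wk animals, also lower without overlap. The ratios overlapped for *Espn*, *Espnl* and *Strc*. For *Espn* they were 0.903 ± 0.00819 in Control and 0.968 ± 0.102 in IDPN-4wk animals (SD, n = 3 per group).

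The remaining 5 genes had a higher ratio to *Myo7a* in every exposed animal than in every control. *Myo7a* fell (log2-Fold change -0.64), so a gene whose own level did not change also has a higher ratio. For all of them but *Eps8l2*, the CPM itself overlapped between groups. The share of all tested genes with such a higher ratio was not computed. *Eps8l2* had ratios of 0.735, 0.626 and 0.659 in Control and 1.51, 1.496 and 1.22 in IDPN-4wk animals. The log2 difference in ratio was 1.06 for *Eps8l2*, 0.59 for *Pls1*, 0.58 for *Triobp*, 0.57 for *Fscn2* and 0.52 for *Eps8*. In these 7 genes without overlap the two-sided exact permutation p was 0.10, the smallest that 3 against 3 animals allow, and 0.143 after adjustment over the 10 genes, so none passes 0.05. Some of these genes are also expressed outside HCs, and what share of their RNA came from HCs was not measured.

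**Figure D4:**
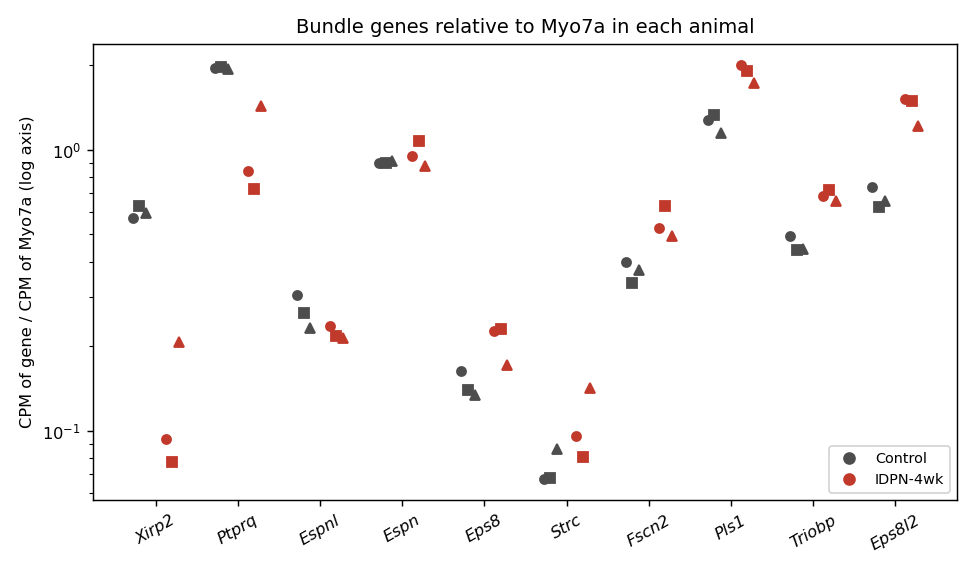
The CPM of each gene divided by that of *Myo7a* (y axis, log scale) is shown for each Control (grey) and IDPN-4wk (red) animal. *Xirp2* and *Ptprq* lie lower in all exposed animals, while *Eps8*, *Fscn2*, *Pls1*, *Triobp* and *Eps8l2* lie higher in all. The CPM of *Myo7a* itself is lower in all exposed animals.

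Related genes were also compared with each other, in 5 pairs. The ratio of *Espn* to *Espnl* was 2.93, 3.44 and 3.91 in Control and 4.03, 4.94 and 4.11 in IDPN-4wk animals. The ratio of *Eps8* to *Eps8l2* was 0.222, 0.224 and 0.203 in Control and 0.1497, 0.154 and 0.141 in IDPN-4wk animals, again with no overlap. Against *Lcp1*, a plastin of leukocytes that is also found in developing HCs, the ratio of *Pls1* went from 3.86 ± 0.482 to 6.21 ± 0.570 (SD, n = 3 per group), without overlap. In that pair *Pls1* did not pass the test (log2-Fold change -0.06), while *Lcp1* was downregulated (-0.74). The cells that the RNA of each came from were not measured. For *Fscn2* against *Fscn1* and *Pls1* against *Pls3*, the ratios overlapped. The two-sided exact permutation p was 0.10 for each of the 3 pairs without overlap and 0.167 after adjustment over the 5 pairs.

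Other genes of the stereocilium were read beside the 10, by role. Over all tested genes, 6.62% were downregulated and 3.09% upregulated. With edgeR Padj under 0.05 at any fold, 11.5% were lower and 7.89% higher. Counts of the lists stand beside these shares. For actin itself the groups overlapped. *Actb* averaged 4000 ± 84.3 CPM in controls and 4167 ± 146 CPM after IDPN (SD, n = 3 per group), with a 95% interval of the log2-Fold change from -0.09 to 0.21. For *Actg1* the interval ran from -0.14 to 0.15. Of 18 genes of actin turnover and capping that were tested, 1 was downregulated, the adenylyl cyclase-associated protein gene *Cap2* (log2-Fold change -0.64). With edgeR Padj under 0.05 but a smaller fold change, *Gsn* (-0.35), *Tmod1* (-0.33), *Twf2* (-0.25) and *Elmod1* (-0.56) were lower and *Pfn1* (0.33) was higher, the last 3 named after their values were seen. The median of the 18 was 0.01, while their list summed to between 5283 and 5547 CPM in controls and between 4850 and 5012 CPM after IDPN. Estimates of 10 cuticular plate genes ran from -0.24 to 0.33, all short of the fold change threshold, with a median of 0.04. Of these, 2 were higher with edgeR Padj under 0.05, *Lima1* (0.30) and *Tpm3* (0.33), named after their values were seen.

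Partners at the tip were split. Of 9 genes tested, *Myo3b* (-1.91, edgeR Padj 4.11e-05) and *Myo15a* (-1.17, edgeR Padj 7.88e-04) were downregulated. These are motors of the tip: class III myosins carry espins, and myosin 15a carries *Eps8* protein with whirlin. *Myo15a* went from 108 ± 5.60 to 48.2 ± 14.7 CPM (SD, n = 3 per group). The other 7 did not pass the test, with estimates from -0.25 to 0.32. The median of the 9 genes was -0.07.

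At the base and taper, 2 of 11 genes were downregulated and the median was -0.32. They were *Gipc3* (-0.74, edgeR Padj 0.0281) and *Clic5* (-0.61, edgeR Padj 0.0310), which ties the membrane to the actin core with radixin and taperin. With edgeR Padj under 0.05 but a smaller fold change, 3 more were lower, *Myo6* (-0.52), which encodes a motor of the stereocilia base, and, named after their values were seen, *Grxcr2* (-0.32) and *Slc9a3r2* (-0.34). The other 6 did not pass the test. All 3 tested genes of the top connector partner list were downregulated, *Otog* (-0.97), *Otoa* (-0.96) and *Otogl* (-0.89). Their products are glycoproteins of the overlying gels and attachments, made largely by supporting cells, and they carried 6262, 2255 and 554 CPM in Control. In the paralog list, 4 of 7 genes were tested and *Lcp1* alone was downregulated (-0.74, edgeR Padj 2.36e-04), with *Fscn1* (-0.57, edgeR Padj 0.0198) lower by less than the fold change threshold.

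**Figure D5:**
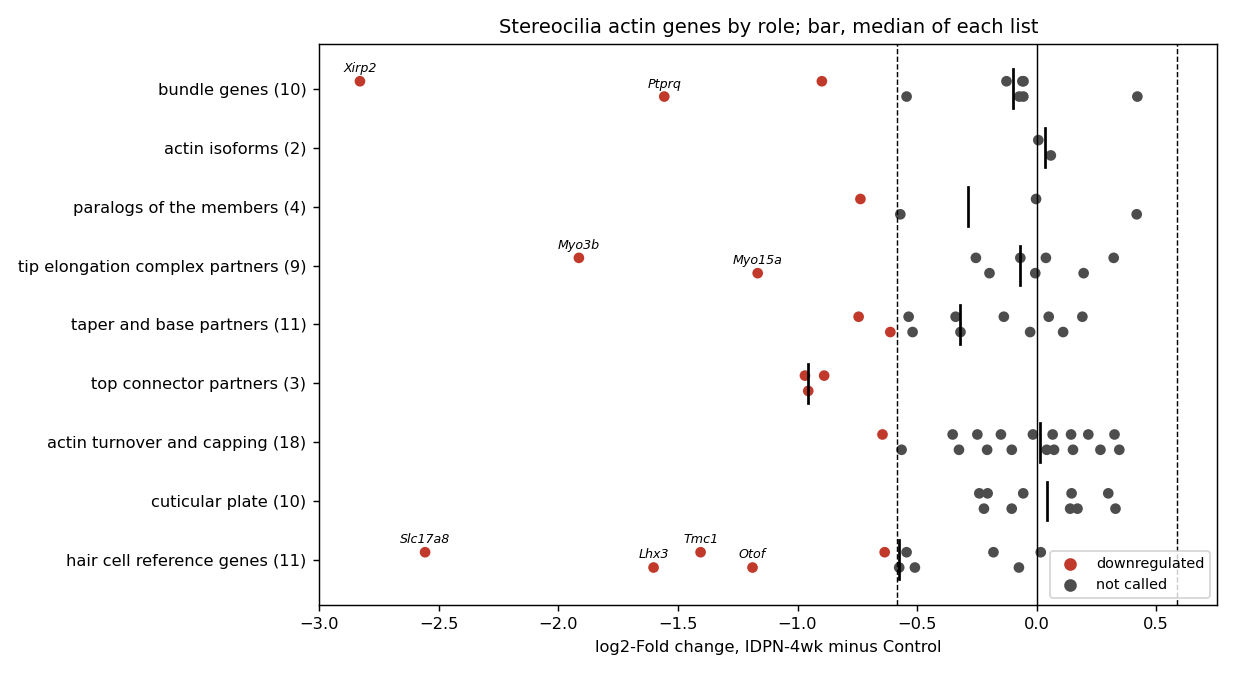
Each point is the log2-Fold change of 1 tested gene (x axis, IDPN-4wk minus Control) grouped by role (rows, number of genes in brackets), red where downregulated, with a bar at the median and dashed lines at a fold change of 1.5. Medians of the actin, turnover and cuticular plate rows lie near 0, those of the HC reference row and the top connector partner row at -0.57 and -0.96.

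Markers of the cells in the dissection were present. Of 11 HC reference genes, 5 were downregulated, from *Slc17a8* (-2.56) to *Myo7a* (-0.64), and the summed level ran from 3314 to 3470 CPM in Control and from 2141 to 2498 CPM in IDPN-4wk animals. A further 3, *Pou4f3* among them (-0.51), were lower with edgeR Padj under 0.05 but a smaller fold change, and the last 3 did not pass the test, *Ush1c* among them (-0.18, edgeR Padj 0.0918). Supporting cell genes summed to between 4222 and 4647 CPM in Control and between 3138 and 3357 CPM in IDPN-4wk animals, with 2 of 10 downregulated. Of the 10 estimates, 6 were below 0 and 4 above. Much of that difference lay in *Gjb6*, with means of 1622 and 891 CPM. With edgeR Padj under 0.05 but a smaller fold change, *Gjb2* (-0.34) and *Slc1a3* (-0.33) were lower and *Agr3* (0.57) was higher, the last 2 named after their values were seen. Because *Xirp2* is also a muscle gene, striated muscle genes were read: of 19 listed, 16 were matched, 6 tested and 3 upregulated, *Myh4*, *Tnnt2* and *Des*. The summed level of the list was 30.7 to 37.8 CPM in Control and 69.5 to 111 CPM in IDPN-4wk animals, and most of that difference lay in *Myh4*, with means of 7.93 and 58.1 CPM. The other 3 tested genes did not pass the test and overlapped between groups, with estimates from -1.13 to 0.34. The muscle genes *Ckm* and *Tnni2* had 0 counts in all 6 libraries. A count of 0 allows up to 3 counts, or 0.155 to 0.216 CPM. Other muscle genes of the list were detected, among them *Tnnc2* with 97 to 224 counts per library and *Mylpf* with 4 to 7. *Ckm*, *Tnni2*, *Tnnc2* and *Mylpf* were named after their values were seen. The zeros therefore do not show that muscle RNA was absent. Sums of the leukocyte, Schwann cell and stroma genes overlapped between groups, and those of dark cell genes were 1511 to 1958 CPM in controls and 1146 to 1269 CPM after IDPN. In the leukocyte, Schwann cell, dark cell and stroma lists 5 of 31 tested genes were downregulated and 3 upregulated. Over all tested genes these shares were 6.62% and 3.09%. The part of these cell types in the results was not tested.

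The genes closest to *Xirp2* over the 6 libraries, by the root mean square distance of log2 CPM from the Control mean among 9969 genes, were *Cdh18*, *Vwa3a* and 3 rows named by clone only, at distances from 0.263 to 0.340. The clone-named rows include AC132671.2, a clone that the study calls *Vsig10l2*. Log2-Fold changes of the 5 lay between -3.26 and -2.52. The genes nearest to the median profile of the 10 members were *Svil*, the gene of an actin-binding membrane protein, *Ncstn*, *Slc16a7*, *Dpp3* and *Suox*, at distances up to 0.039.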

How the data were processed

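Vestibular epithelia of 6 rats were sequenced with a SMART-seq2 protocol from 6 to 11 ng of total RNA, per the labels. The authors mapped paired-end reads to Rnor6.0 with STAR 2.5.3a and deposited expected counts per gene estimated with RSEM (1.3.0 in the submitters' processing notes). The deposited expected counts were whole numbers, so rounding changed none. RSEM shares reads among matching genes, and the protocol keeps no strand. Reads carried no molecular identifiers, so count floors cover counting error only.

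Groups were taken from the treatment label. Genes were filtered with filterByExpr (minimum count 10, total 15), TMM-scaled and tested in edgeR 4.0.16 (glmQLFit and glmQLFTest, R 4.3.3). Calls needed a Benjamini-Hochberg Padj under 0.05 over all genes and a fold change over 1.5. Ratios were compared with two-sided exact permutation tests. The test was also run on simulated counts with the same dispersion for every gene. That run does not cover genes with a wider spread, such as *Xirp2*, *Ptprq* and *Strc*. Members, lists and tests were chosen with earlier results of these data known. The rule allowed naming the members, the called genes of each list with the 3 smallest p in each direction, its 2 genes with the highest Control CPM, the denominators and the nearest profiles. Not every gene it allowed is named, since marker lists of HCs and other cell types are given mainly as counts. *Fscn1* is named as a ratio partner, and other genes outside the rule are marked. DESeq2 1.42.0, limma-voom 3.58.1, glmTreat, other scalings and filters and left-out libraries were alternatives. Animals were separate, and the labels give a single batch.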

Additional observations from a re-analysis of the deposited data

How the results depend on the processing

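The count of 3 downregulated and 0 upregulated members held under DESeq2 size factors, upper quartile scaling, library size alone, both other filters, DESeq2, limma-voom and glmTreat. Leaving out 1 library gave 3 to 4 downregulated and 0 upregulated members. Over the whole table, 1394 genes were called, from 1085 to 1581 without 1 library, and 453 with glmTreat, whose null is a change within the threshold. Genes of the role and marker lists called numbered 27, from 23 to 31 without 1 library and 14 with glmTreat. Estimates near 0 changed sign: with library size alone they were 0.0486 for *Fscn2*, 0.0533 for *Pls1*, 0.0325 for *Strc* and 0.0533 for *Triobp*. Leaving out 1 library gave -0.12 to 0.0473 for *Pls1*, -0.125 to 0.0122 for *Fscn2* and -0.49 to 0.14 for *Strc*. The sign turned for *Pls1* without Control replicate 2, for *Fscn2* without IDPN-4wk replicate 1, and for *Strc* without Control replicate 3 or either of the first 2 exposed animals. Without IDPN-4wk replicate 3, *Strc* had the lowest estimate (edgeR Padj 0.0675). None of these reached Padj under 0.05, and beyond fewer samples the cause was not tested. Ratios to *Myo7a* did not overlap for 7 members, for 8 with *Pou4f3* or the sum of 6 HC genes as denominator, and for 7 to 9 without 1 library. The other denominators also hold genes that were lower in every exposed animal, so these counts are not independent of each other. The share of all tested genes whose ratio does not overlap was not computed. Paralog ratios did not overlap for 3 pairs, and for 3 to 4 without 1 library. No paired analysis was possible because the labels give no replicate numbers. With 3 animals in a group, small changes of genes with a wide spread, such as *Strc*, were not detectable.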
